A study of Rattus norvegicus with 29 samples.

Results

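At UEF, the Finnish site of a 3-site rat study, plasma miRNAs of 8 rats with traumatic brain injury (TBI) were compared with those of 4 sham-operated experimental controls. These were all rats labelled UEF, 12 of the 29 rats in the series, and 754 miRNAs were counted in each. All were adult male Sprague-Dawley rats. TBI was induced by lateral fluid percussion, in which a pressure pulse is delivered to the exposed dura, and sham rats had the same surgery under isoflurane without the impact. Blood was drawn from the tail vein into K2 EDTA tubes 48 h later, again under isoflurane. Of the 8 TBI rats, 4 are labelled TBIN, without later epilepsy, and 4 are labelled TBIE, with epilepsy, as scored by video-EEG in month 7, so the outcome was not yet known at sampling. Each rat gave 1 library, and p-values refer to the spread between rats. The question was which miRNAs of the plasma differed 2 days after the injury.

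Plasma miRNAs are short RNAs that cells release in vesicles or bound to proteins, and the plasma pools what many tissues release. Some of them are made largely in 1 tissue. miR-122-5p is the dominant miRNA of hepatocytes, miR-192 and miR-194 are abundant in liver and gut, miR-486 and miR-451 are made in red cells, and miR-9, miR-124, miR-128 and miR-129 are made mainly in neurons. The imprinted Dlk1-Dio3 region carries a large group of miRNAs that are expressed from the maternal chromosome and, in adults, mostly in brain. More releasing cells and more release per cell cannot be told apart in plasma. Levels are given in CPM, counts scaled to a common library size with a normalization factor for each library, described below. CPM are therefore relative levels but not plain shares of a library, and shares of counts are given separately in percent. The amount per volume of plasma was not measured.

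The mature sequences of the miRNAs on which the results turn are given first, 5′ to 3′, with the seed (bases 2 to 8, the part that pairs with target mRNAs) in capitals. The sequences and positions are from RefSeq (build GRCr8), which held 14 of the 16 miRNAs that passed the test below. miR-802-5p and miR-23a-5p had no entry in the table used. The first group rose after TBI, and the partner miR-409a-3p is shown since it lies on the opposite strand from miR-409b.
miR-434-3p: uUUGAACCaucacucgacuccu
miR-323-3p: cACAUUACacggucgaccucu
miR-382-5p: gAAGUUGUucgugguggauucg
miR-409b: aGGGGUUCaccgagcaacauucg
miR-409a-3p: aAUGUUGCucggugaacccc
miR-129-5p: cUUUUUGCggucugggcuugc
The second group fell after TBI, and miR-101a-3p is shown as the nearest relative of miR-101b-3p.
miR-122-5p: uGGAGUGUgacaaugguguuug
miR-3591: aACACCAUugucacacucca
miR-122-3p: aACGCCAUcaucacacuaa
miR-192-5p: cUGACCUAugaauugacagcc
miR-194-5p: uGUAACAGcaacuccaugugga
miR-101b-3p: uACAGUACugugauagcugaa
miR-101a-3p: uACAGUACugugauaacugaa
miR-466b-5p: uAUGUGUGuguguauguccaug
miR-3473: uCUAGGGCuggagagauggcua
No seed was shared between any pair of the 14 miRNAs. The miRNAs from the imprinted region lie on chromosome 6, at chr6:134330451-134330472 (plus strand) for miR-434-3p, chr6:134546994-134547014 (plus) for miR-323-3p and chr6:134569956-134569977 (plus) for miR-382-5p. miR-409b lies at chr6:134579229-134579251 on the minus strand, over miR-409a-3p on the plus strand (chr6:134579231-134579250), and 20 bases of one are the reverse complement of the other. These 4 span 248.8 kb. miR-3591 lies at chr18:61028831-61028850 on the minus strand, opposite miR-122-5p (chr18:61028831-61028852, plus), again with 20 bases in reverse complement, and whether the counting kept the strands apart is not given in the sources used here. miR-192-5p lies at chr1:212994232-212994252 and miR-194-5p has a copy beside it at chr1:212994038-212994059, both on the plus strand.

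Before any comparison, 1 library stood apart. Total miRNA counts per rat ranged from 1638451 to 5223469 (median 2982653.5), and 649 of the 754 miRNAs had at least 10 counts in all 12 rats. UEF sham 3 had the highest total, the fewest miRNAs with at least 10 counts (658, against 721 to 748 in the other rats) and the lowest TMM normalization factor (0.348, against 0.671 to 1.84). The normalization divides by the total times this factor, so that values of a library dominated by a few miRNAs are scaled up. Mean totals were 3090155 ± 1017321 (SD, n = 8) in TBI and 3256628 ± 1368799 (n = 4) in sham rats (difference −166473, two-sided exact permutation p = 0.820), and the difference was 489141 without UEF sham 3. The biological coefficient of variation between rats was 0.448. Log2 fold changes are therefore given with and without UEF sham 3.

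miR-122-5p made up 28.1%, 36.9%, 55.1% and 41.3% of all counts in UEF sham 1 to 4. In the 8 TBI rats its share was between 1.58% and 22.6%, with a median of 6.54%. Every TBI rat was below every sham rat. The mean share was 9.34% ± 7.04 (SD, n = 8) in TBI and 40.3% ± 11.3 (n = 4) in sham rats, a difference of −31.0 percentage points (two-sided exact permutation p = 0.00202, the smallest p that the 495 regroupings allow). Without UEF sham 3 the difference was −26.1 points.

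**Figure D1:**
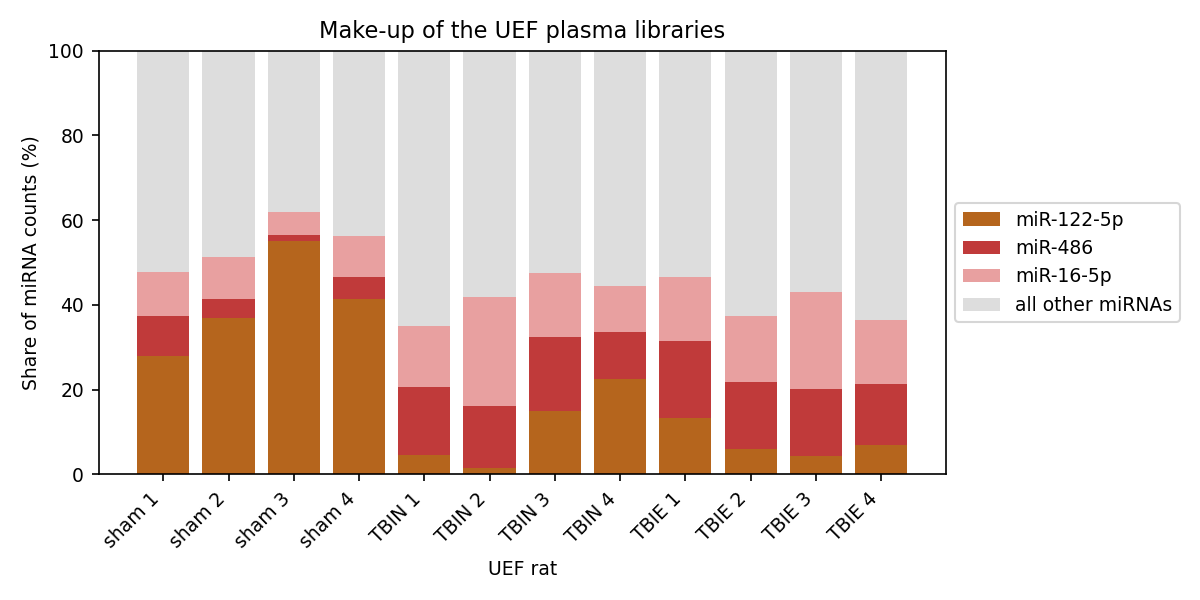
Share of each UEF rat's miRNA counts (%, bars from 0 to 100) held by miR-122-5p, miR-486, miR-16-5p and all other miRNAs. miR-122-5p held 28.1% to 55.1% of the counts in the 4 sham rats and 1.58% to 22.6% in the 8 TBI rats.

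Of 749 miRNAs tested with edgeR, 16 (2.14%) differed between TBI and sham rats at a Benjamini-Hochberg adjusted p below 0.05. 5 (0.668%) were higher and 11 (1.47%) were lower after TBI, and 109 had an unadjusted p below 0.05, 42 of them higher (5.61%) and 67 lower (8.95%). Those higher were 4 miRNAs of the imprinted region and the neuron miRNA miR-129-5p. Those lower were led by miRNAs of liver. In 12 of the 16 the TBI and sham rats did not overlap in CPM (3.07% of all miRNAs), 5 of them higher (13 or 1.74% of all miRNAs tested) and 7 lower (10 or 1.34% of all). As shares of counts, without the normalization factors, the groups did overlap for miR-129-5p, miR-382-5p, miR-466b-5p and miR-23a-5p. The median absolute log2 fold change over all miRNAs was 0.33, whereas the miRNAs past the threshold were between 1.21 and 2.22 when higher and between −1.28 and −2.92 when lower. The split depended on the scaling: with library totals alone 4 were higher and 3 lower, and relative to the reference miR-28-3p none was higher and 2 were lower. Without UEF sham 3, 3 were higher and 1 was lower.

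**Figure D2:**
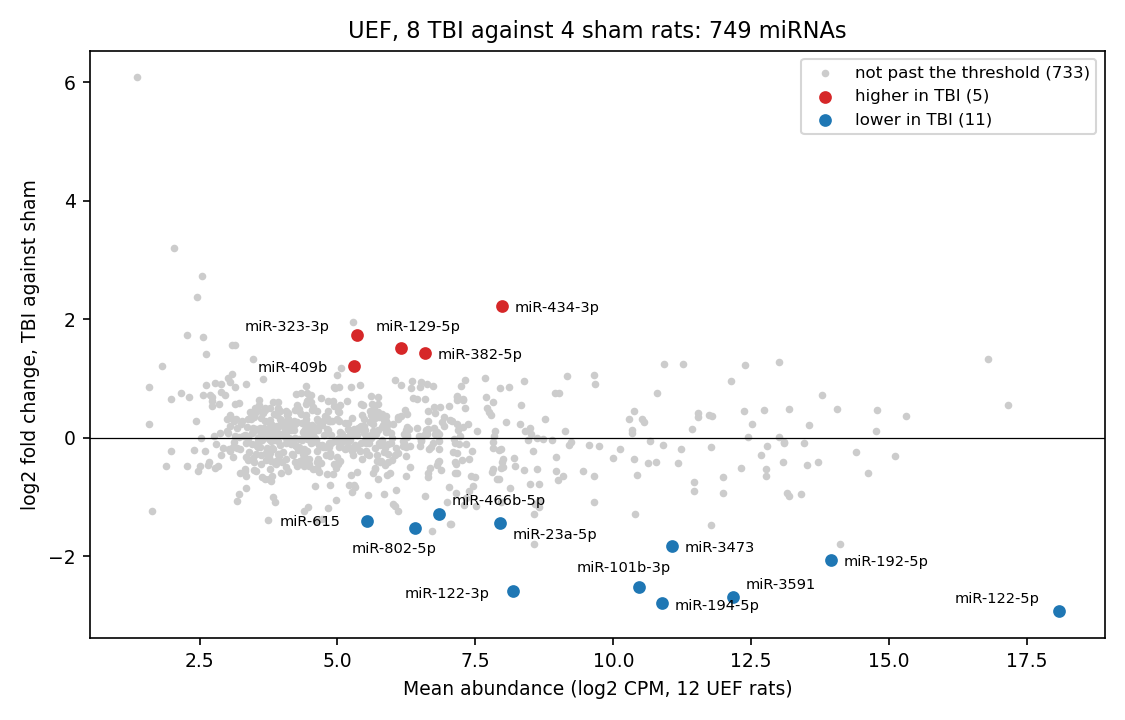
log2 fold change of TBI against sham (vertical axis) by mean abundance in log2 CPM (horizontal axis) for the 749 miRNAs tested in the 12 UEF rats. The 5 miRNAs past the threshold that were higher are in red and the 11 lower are in blue, and the highest grey point is miR-299a-3p, a miRNA with few counts.

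4 miRNAs of the imprinted region rose, from low levels. miR-434-3p, which lies in the antisense transcript of the retrotransposon-derived gene Rtl1, was at 87.9, 52.7, 49.0 and 102 CPM in UEF sham 1 to 4. In the TBI rats it ranged from 187 to 704 CPM, with a median of 317. All TBI rats exceeded all sham rats, and TBIE 2 was the highest. The log2 fold change was 2.22 (SE 0.41, adjusted p = 0.00916 by edgeR), and 2.11 without UEF sham 3 (adjusted p = 0.0438). All 22 bases of miR-434-3p are also the reverse complement of bases of miR-3543, which was at 15.5 CPM in sham and 25.8 CPM in TBI rats (log2 fold change 0.72, SE 0.32, adjusted p = 0.283 by edgeR, and 0.55 without UEF sham 3).

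miR-323-3p, of the large miR-379 to miR-410 cluster, was at 21.2, 14.8, 17.6 and 9.85 CPM in the sham rats. TBI rats had from 33.8 to 87.6 CPM (median 46.5). Here too the groups were separate, with TBIE 1 lowest among the injured. This is a log2 fold change of 1.73 (SE 0.29, adjusted p = 0.00916 by edgeR) and 1.81 without UEF sham 3 (adjusted p = 0.0438). The counts were small, with 25 to 62 counts in the sham and 104 to 338 in the TBI libraries.

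miR-409b had the smallest spread among sham rats of the 5 risen miRNAs, at 23.6, 20.7, 19.3 and 18.5 CPM, and was between 39.4 and 72.3 CPM (median 42.8) after TBI (log2 fold change 1.21, SE 0.23, adjusted p = 0.00916 by edgeR; without UEF sham 3, 1.21 and 0.0438). The miRNA on the other strand, miR-409a-3p, averaged 5.15 CPM in sham and 13.0 CPM in TBI rats without overlap (1.33, SE 0.41, adjusted p = 0.10 by edgeR, and 1.38 without UEF sham 3). miR-382-5p was at 51.0, 32.4, 27.5 and 67.8 CPM in the sham rats and between 74.7 and 228 CPM (median 103) in the TBI rats. Its lowest TBI rat in CPM, TBIN 3, was just above the highest sham rat. As shares of counts the groups overlapped (highest sham rat 0.00829%, lowest TBI rat 0.00716%). On the log2 scale they differed by 1.44 (SE 0.36, adjusted p = 0.0425 by edgeR) and 1.31 without UEF sham 3, where it no longer passed (adjusted p = 0.145).

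Of the 91 miRNAs of the imprinted region that were tested, 4 rose and none fell, against 0.668% and 1.47% of all miRNAs. 64 were above 0 and 27 below (384 and 365 of all 749), with a median log2 fold change of 0.27 (0.01 over all miRNAs tested), and 0.12 without UEF sham 3. With an unadjusted p below 0.05 there were 14 higher and 1 lower, the latter being miR-495 (−1.06, SE 0.50, adjusted p = 0.331 by edgeR, and −1.32 without UEF sham 3). In CPM, TBI rats lay above sham rats without overlap in 8, against 1.74% of all miRNAs. The summed level of the whole list overlapped, at 2502 to 3852 CPM in sham and 3209 to 4219 CPM in TBI rats. miR-411-5p, which had the highest mean of the list over all 12 rats, had 830, 141, 479 and 224 CPM in the sham rats and a median of 317 CPM after TBI (−0.54, SE 0.43, adjusted p = 0.628 by edgeR, and −0.45 without UEF sham 3).

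Among neuron miRNAs, miR-129-5p rose. It was at 33.5, 26.5, 20.4 and 43.7 CPM in the sham rats. In the TBI rats it was between 56.5 and 172 CPM, with a median of 82.4. In CPM all TBI rats were above all sham rats, and TBIE 2 was again the highest. As shares of counts the groups overlapped (highest sham rat 0.00535%, lowest TBI rat 0.00424%). The log2 fold change was 1.52 (SE 0.32, adjusted p = 0.0160 by edgeR), and 1.41 without UEF sham 3 (adjusted p = 0.0999).

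miR-128-3p, the most abundant neuron miRNA in these plasmas, was at 3102, 3050, 3094 and 2092 CPM in the sham rats and between 3446 and 9878 CPM (median 7001) in the TBI rats. The groups did not overlap, but the difference did not pass the test (log2 fold change 1.23, SE 0.36, adjusted p = 0.0897 by edgeR, and 1.30 without UEF sham 3). miR-9a-3p, which acts in neural development, had 45.7 to 87.3 CPM in sham and 101 to 173 CPM in TBI rats, without overlap (0.88, SE 0.26, adjusted p = 0.0939 by edgeR, and 0.83 without UEF sham 3). As shares of counts it did overlap (highest sham rat 0.0104%, lowest TBI rat 0.00820%). miR-124-3p, the most neuron-specific of them, was at 51.0, 28.1, 36.4 and 36.7 CPM in sham rats and at a median of 49.2 CPM after TBI, and the groups overlapped (0.31, SE 0.22, adjusted p = 0.619 by edgeR, and 0.32 without UEF sham 3). The activity-regulated pair miR-132-3p and miR-212-3p, which share a seed, had log2 fold changes of 0.38 (SE 0.27) and 0.11 (SE 0.28), and edgeR adjusted p of 0.617 and 0.897. They were at 0.72 (adjusted p = 0.273 by edgeR) and −0.039 when UEF sham 3 was left out.

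Of 20 neuron miRNAs 1 rose and none fell, against 0.668% and 1.47% of all miRNAs. 15 were above 0 (384 of 749 over all), the median was 0.34 (0.27 without UEF sham 3), and 6 had an unadjusted p below 0.05, all higher (5.61% of all miRNAs). Their summed level was 2958 to 3959 CPM in the sham rats and 4559 to 10749 CPM in the TBI rats, which did not overlap. Most of it was miR-128-3p, which did not pass, so the sum mainly shows that 1 miRNA. The other arms, miR-128-1-5p and miR-128-2-5p, were at −0.021 (SE 0.29) and −0.22 (SE 0.35), and at −0.14 and −0.36 without UEF sham 3. None of 5 oligodendrocyte miRNAs (miR-219a and miR-338) passed, with a median of 0.18. miR-219a-1-3p was at 50.6 ± 18.9 CPM (SD, n = 4) in sham and 39.4 ± 12.3 CPM (n = 8) in TBI rats (log2 fold change −0.36, and −0.38 without UEF sham 3).

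The study assayed 7 miRNAs by droplet digital PCR, chosen in part on these samples, so their direction is not independent evidence. miR-434-3p and miR-323-3p of this panel rose and none fell, against 0.668% and 1.47% of all miRNAs. All 7 were above 0 (384 of 749 over all), with a median of 0.75 (0.83 without UEF sham 3), and 3 were higher without overlap in CPM (1.74% of all). miR-183-5p, a miRNA of sensory cells, was at 376, 228, 632 and 114 CPM in the sham rats and between 170 and 1691 CPM (median 390) in the TBI rats, the highest being TBIN 2 (0.75, SE 0.58, adjusted p = 0.628 by edgeR, and 1.25 with an adjusted p of 0.527 without UEF sham 3). The 4 tested miRNAs of its cluster (miR-183, miR-96, miR-182) were all above 0 with a median of 0.44 (0.77 without UEF sham 3), and none passed. The reference of those assays, miR-28-3p, was at 447, 609, 1403 and 300 CPM in sham and at a median of 403 CPM in TBI rats (−0.70, SE 0.39, adjusted p = 0.414 by edgeR). Without UEF sham 3 its log2 fold change was −0.08.

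**Figure D3:**
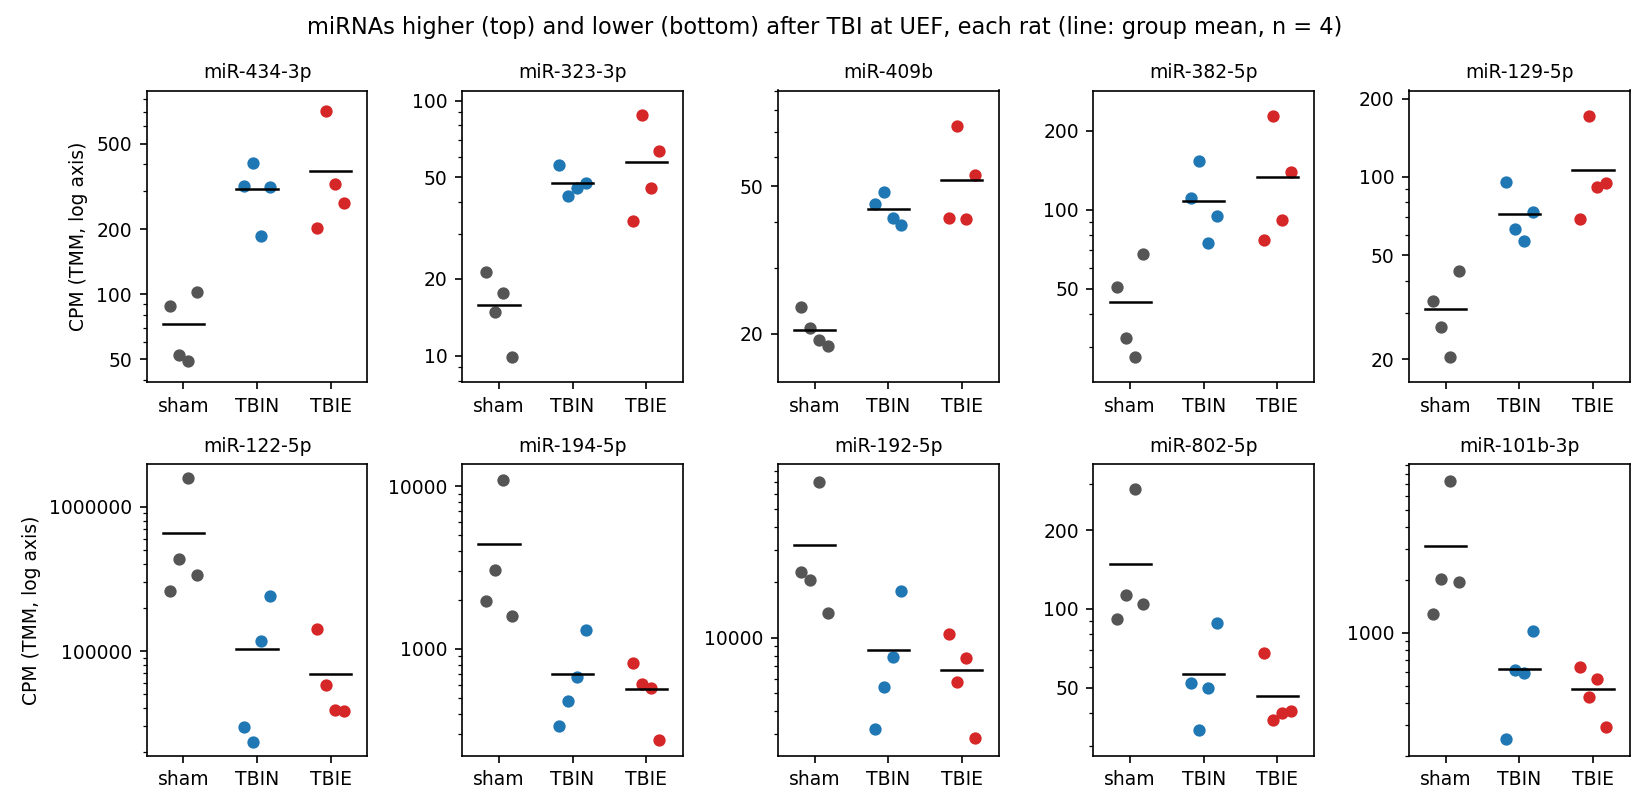
CPM (TMM-normalized, log axis) of each of the 12 UEF rats for 5 miRNAs that were higher after TBI (top) and 5 that were lower (bottom), by group (sham, TBIN, TBIE; n = 4 each), with the group mean as a line. All TBI rats were above all sham rats in the top row. In the bottom row UEF sham 3 was the highest sham rat in every panel, and TBIN 4 was the highest TBI rat.

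miRNAs of liver fell after TBI. In CPM, miR-122-5p was at 260670, 433904, 1584949 and 337652 in UEF sham 1 to 4, the value of UEF sham 3 being scaled up by the low normalization factor of that library. The TBI rats were between 23538 and 241296 CPM, with a median of 48697. TBIN 4 came nearest to the sham rats. The log2 fold change was −2.92 (SE 0.60, adjusted p = 0.0160 by edgeR), and −1.99 without UEF sham 3 (adjusted p = 0.145). The other arm of its hairpin, miR-122-3p, had a log2 fold change of −2.59 (SE 0.62, adjusted p = 0.0324 by edgeR) and the antisense miR-3591 one of −2.69 (SE 0.60, adjusted p = 0.0214 by edgeR). These 3 values come from 1 locus. miR-122-5p and miR-3591 lie over each other and may share reads, while miR-122-3p lies apart from both. With UEF sham 3 left out, miR-122-3p was at −1.84 (adjusted p = 0.222 by edgeR) and miR-3591 at −1.87 (adjusted p = 0.179).

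miR-194-5p, of the neighbouring miR-192 and miR-194 genes, was at 1962, 3074, 10959 and 1597 CPM in the sham rats. It was between 276 and 1317 CPM in the TBI rats (median 590). The groups did not overlap, and UEF sham 3 was the highest sham rat. The difference on the log2 scale was −2.79 (SE 0.51, adjusted p = 0.00916 by edgeR) and −1.79 without UEF sham 3, just outside the threshold (adjusted p = 0.0540). miR-192-5p had 22878, 20525, 70238 and 13592 CPM in sham rats and 2865 to 18006 CPM (median 6748) after TBI. Here TBIN 4 was above UEF sham 4, and the log2 fold change was −2.05 (SE 0.49, adjusted p = 0.0340 by edgeR), with −1.30 and an adjusted p of 0.265 without UEF sham 3. miR-215, which shares the seed of miR-192-5p, was at −0.41 (SE 0.35, adjusted p = 0.653 by edgeR) on the same scale, and at −0.50 without UEF sham 3.

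miR-802-5p, a hepatocyte miRNA linked to glucose metabolism, had 91.7, 113, 286 and 104 CPM in the sham rats and 34.5 to 88.3 CPM (median 45.4) in the TBI rats. TBIN 4 and TBIE 1 were nearest to the sham rats, without reaching them (−1.53, SE 0.32, adjusted p = 0.0160 by edgeR; without UEF sham 3, −0.97 and 0.145). Of the 9 liver miRNAs 6 fell and none rose, against 1.47% and 0.668% of all miRNAs. All 9 were below 0 with an unadjusted p below 0.05 (8.95% of all), with a median of −2.05, and −1.30 without UEF sham 3, where none passed. Their summed level was 291402 to 1692648 CPM in the sham and 30022 to 265748 CPM (median 57249) in the TBI rats, without overlap.

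The 5 other miRNAs that fell are not on the lists. miR-101b-3p, of a family that targets the polycomb enzyme Ezh2, was at 1272, 2020, 7288 and 1936 CPM in sham rats and at 250 to 1019 CPM (median 569) after TBI, with no overlap. On the log2 scale the difference was −2.52 (SE 0.46, adjusted p = 0.00916 by edgeR), and −1.65 without UEF sham 3 (adjusted p = 0.0540). miR-101a-3p differs from it by 1 base and has the same seed, so reads could be split between the 2, and it averaged 554 CPM in sham and 325 CPM in TBI rats (−0.77, SE 0.37, adjusted p = 0.352 by edgeR, and −0.28 without UEF sham 3).

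miR-466b-5p, of a rodent family with GU repeats, was at 154, 169, 293 and 136 CPM in sham rats and between 55.8 and 110 CPM after TBI (−1.28, SE 0.27, adjusted p = 0.0160 by edgeR). miR-23a-5p had 209, 525, 612 and 353 CPM in sham rats and 112 to 199 CPM in TBI rats (−1.43, SE 0.31, adjusted p = 0.0160 by edgeR). Neither overlapped in CPM, where UEF sham 1 was the nearest to the TBI rats for miR-23a-5p. Both overlapped as shares of counts. For miR-466b-5p the lowest sham rat had 0.0102% and the highest TBI rat 0.0110%, and for miR-23a-5p these were 0.0213% and 0.0363%. miR-3473 (−1.83, SE 0.40, adjusted p = 0.0207 by edgeR) and miR-615, which lies in a Hox gene cluster (−1.41, SE 0.32, adjusted p = 0.0214 by edgeR), overlapped in CPM. UEF sham 1 had 1388 CPM of miR-3473 where TBIE 3 had 2075, and 46.9 CPM of miR-615 where TBIN 4 had 65.5. None of these 5 passed without UEF sham 3, where miR-466b-5p was at −0.96 and miR-23a-5p at −1.17 (both with an edgeR adjusted p of 0.117), miR-3473 at −1.37 (0.145) and miR-615 at −1.31 (0.128).

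Red cell miRNAs were measured beside these results, since hemolysis adds them to plasma. miR-486 was at 85619, 52830, 44022 and 42383 CPM in the sham rats. It was between 77834 and 217573 CPM in the TBI rats, with a median of 137081, and 7 of 8 lay above all sham rats. The log2 fold change of 1.34 (SE 0.35) just missed the threshold (adjusted p = 0.0528 by edgeR), and was 1.26 without UEF sham 3 (adjusted p = 0.145). miR-16-5p, which red cells hold in large amounts, averaged 111292 ± 30182 CPM (SD, n = 4) in sham and 162448 ± 96734 CPM (n = 8) in TBI rats (0.55, SE 0.40, adjusted p = 0.621 by edgeR, and 0.74 without UEF sham 3). None of 7 red cell miRNAs passed. All 7 were above 0 (384 of 749 over all), with a median of 0.60 (0.74 without UEF sham 3). An unadjusted p below 0.05 was reached by 3, all higher (5.61% of all miRNAs). They were miR-486, miR-451-5p (1.24, SE 0.56, adjusted p = 0.296 by edgeR, and 1.40 without UEF sham 3) and miR-144-5p (0.96, SE 0.41, adjusted p = 0.258 by edgeR, and 1.06 without UEF sham 3). The summed level of the 7 overlapped, at 123596 to 196511 CPM in sham and 160958 to 607577 CPM in TBI rats.

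The log2 ratio of miR-451-5p to miR-23a-3p, a measure of hemolysis in which higher values mean more red cell RNA, was −2.81, −2.94, −3.57 and −2.90 in UEF sham 1 to 4. It was between −3.05 and −0.87 in the TBI rats (median −2.06). TBIE 2 and TBIE 4 fell among the sham rats. The means were −2.09 ± 0.73 (SD, n = 8) and −3.06 ± 0.35 (n = 4), a difference of 0.97 (two-sided exact permutation p = 0.0384). In 8 of 12 runs with 1 rat left out the exact permutation p was above 0.05, at most 0.109. With this ratio as a covariate 4 of the 16 miRNAs still passed, namely miR-323-3p, miR-434-3p, miR-409b and miR-129-5p, and miR-382-5p (1.58, adjusted p = 0.151 by edgeR) and the 11 that fell did not. Among the latter miR-122-5p went from −2.92 to −1.73 (SE 0.96, adjusted p = 0.610), while miR-101b-3p was at −2.34 (SE 0.75), miR-3473 at −1.96 (SE 0.60), miR-615 at −1.25 (SE 0.46) and miR-466b-5p at −1.12 (SE 0.39), near their values without the covariate and with larger SE.

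Smooth muscle and endothelial miRNAs had a median log2 fold change of −0.67 (7 tested, none past the threshold), which was −0.05 without UEF sham 3 and 0.06 with library totals alone. With library totals it was −0.38 relative to the median of all miRNAs. miR-143-3p, of vascular smooth muscle, was at 10054, 29220, 87818 and 8101 CPM in the sham rats and at 3967 to 17731 CPM in the TBI rats (−1.80, SE 0.54, adjusted p = 0.0939 by edgeR), and its log2 fold change was −0.70 without UEF sham 3 (adjusted p = 0.714). UEF sham 2 and 3 were above all others, and UEF sham 1 and 4 lay within the TBI rats. None of 14 muscle miRNAs passed (median 0.24), and their median was 0.044 without UEF sham 3. The summed count of miR-133a-3p and miR-133b-3p varied most, from 428 CPM in UEF sham 3 to 8682 CPM in UEF sham 4 and from 290 CPM in TBIN 3 to 30601 CPM in TBIN 2 (0.96, SE 1.2, adjusted p = 0.765 by edgeR, and 0.64 without UEF sham 3).

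Each sham rat moved the number of miRNAs past the threshold. Without UEF sham 3, 4 of 751 miRNAs passed (0.533%; 74 at an unadjusted p below 0.05). These were miR-434-3p, miR-323-3p and miR-409b, all higher (0.399%), and miR-6327, which was lower (0.133%; −1.69, adjusted p = 0.0438 by edgeR) and had not passed with all rats (−1.39, adjusted p = 0.0897). The other 13 of the 16 kept their sign, with adjusted p from 0.0540 to 0.265. Without UEF sham 1 or UEF sham 4 the number was 37 each (14 higher and 23 lower, and 8 and 29), and without UEF sham 2 it was 8 (3 and 5). With a TBI rat left out it was between 11 and 17. DESeq2 gave 49 with all rats (21 higher and 28 lower), including all 16, and 23 without UEF sham 3 (12 and 11).

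**Figure D4:**
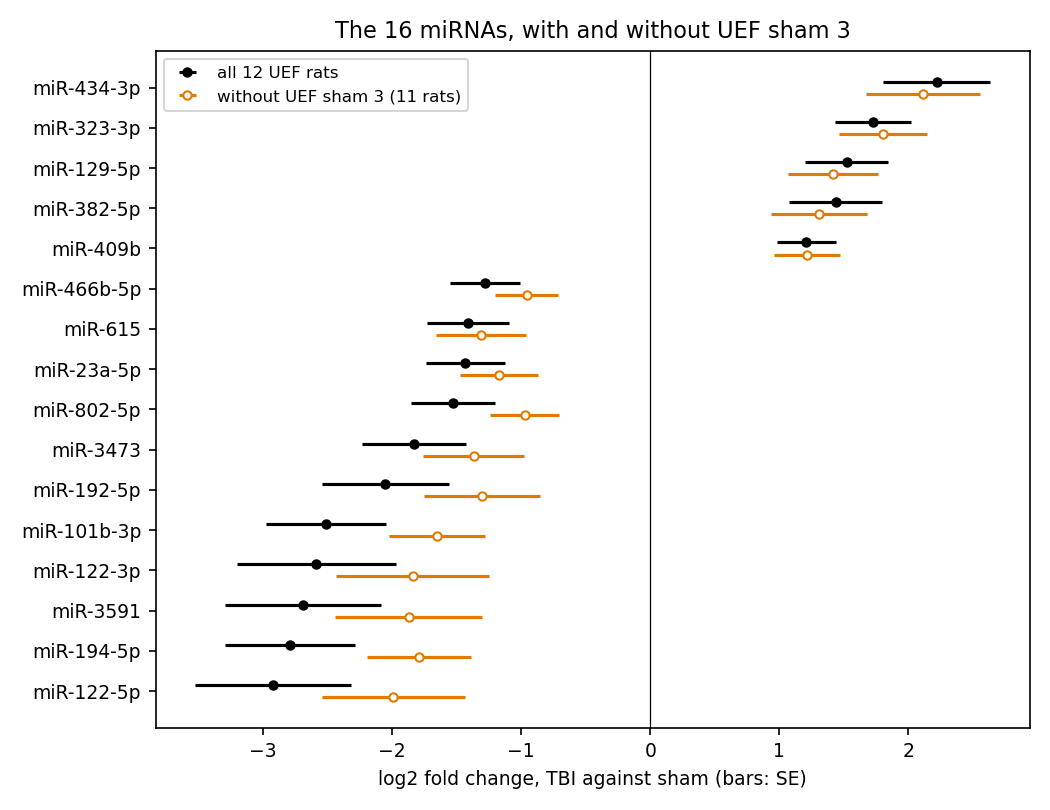
log2 fold change of TBI against sham (horizontal axis, bars: SE) for the 16 miRNAs past the threshold at UEF, with all 12 rats (filled) and without UEF sham 3 (open). miR-434-3p went from 2.22 to 2.11, miR-122-5p from −2.92 to −1.99 and miR-194-5p from −2.79 to −1.79.

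The injured rats were then taken by later outcome, each against the same 4 sham rats. For TBIN against sham no miRNA passed in edgeR (0 of 749, 80 at an unadjusted p below 0.05, lowest adjusted p = 0.123), while DESeq2 gave 21. Without UEF sham 1 edgeR gave 2. For TBIE against sham 8 passed (1.07%), 5 higher and 3 lower. The number was 16 without UEF sham 1 and 0 without UEF sham 2 or UEF sham 3, and DESeq2 gave 37. Those higher were miR-323-3p, miR-434-3p, miR-409b, miR-129-5p and miR-138-1-3p, another neuron miRNA, and those lower were miR-194-5p, miR-101b-3p and miR-615.

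Side by side, the log2 fold changes against sham in TBIN and TBIE rats were 1.58 (SE 0.33) and 1.86 (SE 0.33) for miR-323-3p, 2.07 and 2.36 for miR-434-3p, and −2.66 and −3.24 for miR-122-5p. TBIE had the larger absolute value in 15 of the 16 miRNAs, the exception being miR-3473 (−2.06 and −1.63). Both sets were set against the same sham rats, and the share over all 749 miRNAs was not computed. The count is therefore no test of a difference between TBIE and TBIN. In the direct comparison of TBIE with TBIN no miRNA passed (0 of 749 in edgeR, 12 at an unadjusted p below 0.05, lowest adjusted p = 0.996; 0 in DESeq2). The largest of these differences among the 16 in terms of p was that of miR-615 (−0.74, SE 0.35, edgeR unadjusted p = 0.0534).

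The same 16 miRNAs were looked at in the 17 rats of the other sites, Monash (5 TBI, 3 sham) and UCLA (6 TBI, 3 sham), which had no part in the test at UEF. In a fit of these 17 rats alone, with site and injury, no miRNA passed (0 of 749 in edgeR, 36 at an unadjusted p below 0.05, lowest adjusted p = 0.391). 13 of the 16 had the same sign as at UEF, 5 of the 5 higher and 8 of the 11 lower, where 56.1% of all miRNAs were above 0. 4 had an unadjusted p below 0.05, namely miR-323-3p (0.84, SE 0.22, adjusted p = 0.391 by edgeR), miR-434-3p (0.58, SE 0.23), miR-129-5p (0.54, SE 0.23) and miR-615 (−0.64, SE 0.29), the others with an edgeR adjusted p of 0.931.

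By site, in 1 fit of all 29 rats, miR-434-3p had a log2 fold change of 2.22 (SE 0.37) at UEF, 0.59 at Monash and 0.60 at UCLA. miR-122-5p had −2.92 (SE 0.51), −0.92 and −0.10. All 16 had a larger absolute value at UEF than at either other site, as follows in part from their choice at UEF. The higher ones were above 0 in 4 of 5 at Monash and in 5 of 5 at UCLA, and the lower ones were below 0 in 10 of 11 and 4 of 11. Over all miRNAs 53.3% were above 0 at Monash and 52.2% at UCLA. The lower ones are not independent of each other, since miR-122-5p, miR-122-3p and miR-3591 come from 1 locus and miR-192-5p and miR-194-5p from neighbouring genes.

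**Figure D5:**
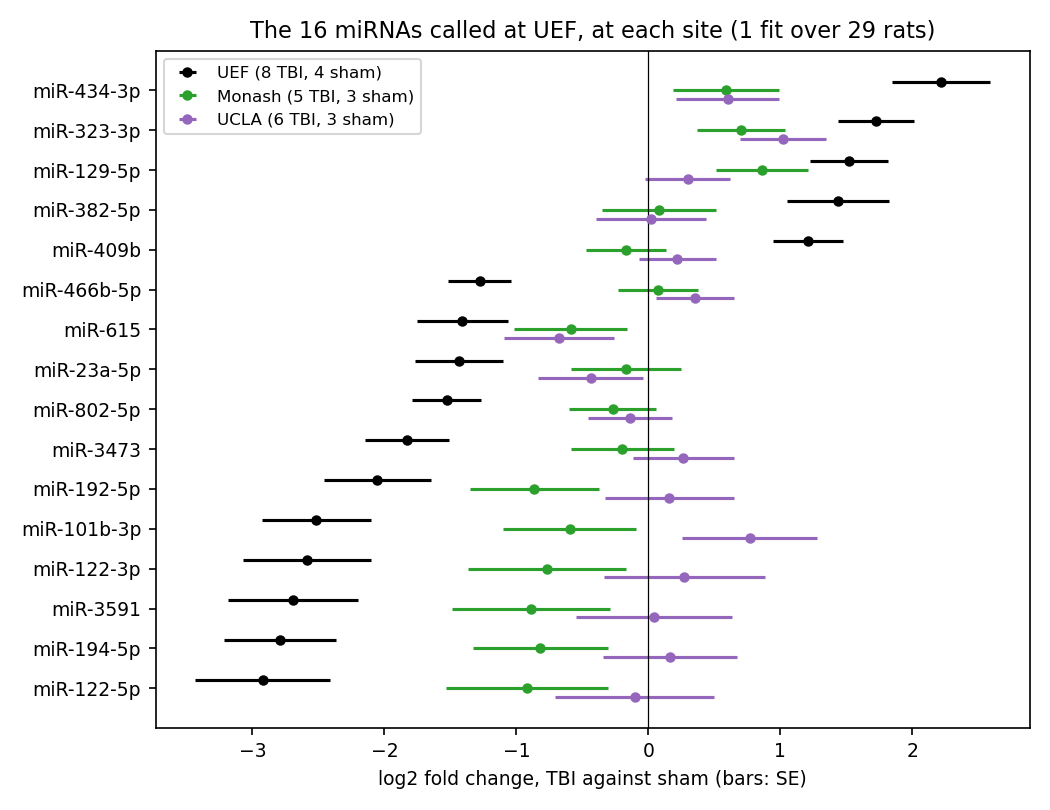
log2 fold change of TBI against sham (horizontal axis, bars: SE) at UEF, Monash and UCLA for the 16 miRNAs past the threshold at UEF, from 1 fit of 29 rats. miR-434-3p, miR-323-3p, miR-129-5p and miR-382-5p were above 0 at all 3 sites, the last near 0 at Monash (0.078) and UCLA (0.022). miR-122-5p, miR-802-5p, miR-23a-5p and miR-615 were below 0 at all 3, miR-122-5p being near 0 at UCLA (−0.10).

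The difference of the TBI effect at UEF from the mean of the effects at Monash and UCLA passed for 4 of 754 miRNAs (0.531%; 85 at an unadjusted p below 0.05), all lower at UEF. They were miR-101b-3p (difference of log2 fold changes −2.60, SE 0.56, adjusted p = 0.0262 by edgeR), miR-466b-5p (−1.49, SE 0.32, 0.0262), miR-3473 (−1.86, SE 0.43, 0.0286) and miR-194-5p (−2.46, SE 0.57, 0.0286). None of the 5 miRNAs that rose at UEF passed this test. The number was 0 without UEF sham 3 or TBIN 2, 1 without UEF sham 2, 2 without TBIN 1, 9 without TBIN 4 and 11 without UEF sham 1. It was 0 against Monash alone and 7 against UCLA alone.

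The levels of these 4 miRNAs were set side by side, with no test between sites. The contrast that chose them uses these same rats, so high sham levels at UEF follow in part from the choice. How often UEF sham rats lay above those elsewhere over all miRNAs was not counted. On the scale of all 29 rats miR-194-5p averaged 4585 ± 4607 CPM (SD, n = 4) in sham rats at UEF, 847 ± 464 (n = 3) at Monash and 409 ± 210 (n = 3) at UCLA, and each UEF sham rat (lowest 1665 CPM) was above the highest sham rat elsewhere (1379 CPM). In TBI rats it averaged 663 ± 340 (n = 8), 480 ± 173 (n = 5) and 458 ± 136 CPM (n = 6). miR-466b-5p averaged 196 ± 74.1, 52.7 ± 18.4 and 59.8 ± 5.46 CPM in sham and 80.6 ± 20.5, 55.7 ± 15.4 and 76.4 ± 15.5 CPM in TBI rats of the same sites. For miR-466b-5p all 4 UEF sham rats, from 142 to 305 CPM, were above all rats of both other sites, the highest of which had 96.8 CPM. miR-101b-3p averaged 3262 ± 2912, 903 ± 190 and 290 ± 131 CPM in sham rats, and the lowest UEF sham rat (1327 CPM) was above the highest elsewhere (1115 CPM). The sham rats overlapped for miR-3473, with 1447 to 7596 CPM at UEF, 1622 to 2803 CPM at Monash and 1235 to 1943 CPM at UCLA. miR-122-5p, which did not pass this test, averaged 682155 ± 651063 CPM in UEF sham rats, 108916 ± 28637 at Monash and 16286 ± 4101 at UCLA. Its lowest UEF sham rat (271770 CPM) was above the highest rat elsewhere (128420 CPM). In TBI rats miR-122-5p averaged 89942 ± 79415, 57632 ± 25151 and 15151 ± 5727 CPM. For miR-3591, miR-122-3p, miR-192-5p and miR-802-5p too, the lowest UEF sham rat was above the highest sham rat elsewhere. For miR-434-3p, which did not pass this test, the order was the other way, with 76.1 ± 27.4 CPM in UEF sham rats against 164 ± 83.8 at Monash and 123 ± 37.3 at UCLA, and 355 ± 170 CPM in UEF TBI rats against 246 ± 77.5 and 187 ± 38.7.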

How the data were processed

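The authors had plasma RNA made into QIASeq libraries, sequenced these as single-end reads, trimmed the reads with cutadapt, and mapped them with Bowtie to Rnor_6.0. Versions of these tools are not given in the sources used here. The deposited table holds raw counts per miRNA and rat, as whole numbers, and whether reads with the same molecular identifier were merged is not stated. 7 names join several mature miRNAs.

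Counts were tested with edgeR 4.0.16 (R 4.3.3): low counts were removed by filterByExpr (minimum 10), libraries were scaled by TMM, and quasi-likelihood p-values were adjusted by Benjamini-Hochberg over every tested miRNA (threshold 0.05). CPM used TMM factors, with a prior count of 2 only for log2 values. Mean totals, shares and ratios (offset 0.5) were compared by exact permutation of the rats. Site contrasts used 1 fit of 29 rats in 6 groups of site and injury. Scripts were tested on simulated data. Alternatives were DESeq2 1.42.0, limma-voom (limma 3.58.1) with sample weights, other scalings and filters, covariates, a block on replicate numbers, and fits lacking 1 rat.

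Members and lists were chosen with earlier results of these data known. Named miRNAs are the 7 of the PCR panel with miR-28-3p, at most 12 past the threshold in each direction, up to 4 members past it and the most abundant member of each list, the 5 most abundant of all, and those past the threshold of the site contrast. miR-101a-3p, miR-138-1-3p, miR-144-5p, miR-215, miR-299a-3p, miR-3543, miR-409a-3p, miR-451-5p, miR-495 and miR-6327 were named after their values were seen. Authors' PCR values were not used.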

Additional observations from a re-analysis of the deposited data

Results flagged for a closer look

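Single rats stood far from the rest of their group, by Dixon's test at the 95% level, in 19 of 78 groups of rats examined. The chance rate of about 1 in 20 (3.9) holds for independent, normally distributed values. All 19 marks were on CPM, not on log2 values, and several of the miRNAs share a locus. The 19 against 3.9 is therefore no test of an excess. 7 of these marks fell on UEF sham 3, whose CPM was far above the next sham rat for 7 miRNAs that fell after TBI. They were miR-122-5p (1584949 CPM, next 433904), miR-3591 (24175, next 7113), miR-122-3p (1456, next 487), miR-192-5p (70238, next 22878), miR-194-5p (10959, next 3074), miR-802-5p (286, next 113) and miR-101b-3p (7288, next 2020). These values carry the low TMM factor of that library (0.348). As shares of counts, a scale added after seeing the data, UEF sham 3 stood apart for 0 of the 7: miR-802-5p made up 0.00994% of its counts, against 0.00962% to 0.0128% in the other sham rats, and miR-194-5p 0.381% against 0.195% to 0.261%. UEF sham 4 stood apart with low CPM of miR-128-3p (2092, next 3050) and miR-223-3p (18460, next 23482), and with high CPM of miR-133a-3p/133b-3p (8682, next 1364).

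Among the TBI rats, TBIE 2 was far above the others for miR-434-3p (704 CPM, next 408), miR-129-5p (172, next 95.6), miR-409b (72.3, next 53.5) and miR-132-3p (77.2, next 48.8). TBIN 2 was far above for miR-133a-3p/133b-3p (30601 CPM, next 6812), miR-16-5p (381826, next 200810), miR-183-5p (1691, next 699) and miR-375-3p (5574, next 1964). TBIN 4 was far above for miR-615 (65.5 CPM, next 33.8).

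The TBI effect at UEF differed from the mean effect at Monash and UCLA, by the edgeR interaction test, for miR-101b-3p (−2.60), miR-466b-5p (−1.49), miR-3473 (−1.86) and miR-194-5p (−2.46, all as differences of log2 fold changes). Without UEF sham 3 none of the 754 miRNAs passed this test, and the cause was not tested.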

How the results depend on the processing

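Against the 16 miRNAs past the threshold, 7 passed with library totals alone, 2 scaled to miR-28-3p, 28 of 382 with a mean of at least 100 counts, 49 with DESeq2, 6 with limma-voom with sample quality weights, 29 in the fit of 29 rats and 4 with the miR-451 to miR-23a-3p ratio as covariate. Of the alternatives chosen after seeing the data, limma-voom without UEF sham 3 gave 1 and DESeq2 without it 23. With a rat left out the number was 4 to 37. The other alternatives gave 13 to 19 (16 without a filter, 17 with DESeq2 size factors, 19 with upper-quartile factors, 18 without miR-122-5p, 15 with 3 groups). Library totals moved the median log2 fold change of all miRNAs to 0.44, and miR-28-3p scaling moved it to 0.34. Relative to it the liver list stayed at −1.78 and −1.71 and the neuron list at 0.29 and 0.30, while the imprinted list went from 0.26 to 0.16 and 0.14 and the muscle list from 0.23 to 0.0078 and 0.00012.

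For TBIN against sham DESeq2 gave 21 and leaving out a sham rat 0 to 2. For TBIE against sham DESeq2 gave 37, DESeq2 size factors in edgeR 5, and leaving out a sham rat 0 to 16 (TBI rats were not left out there). For the site contrast DESeq2 gave 15, Monash alone 0, UCLA alone 7, and a rat left out 0 to 11. The difference in totals ranged from −560803 to 489141 with a rat left out, that of the miR-122-5p share from −35.1 to −26.1 and that of the hemolysis ratio from 0.79 to 1.11.

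With the replicate block, 13 miRNAs passed (5 higher, 8 lower), and 5 in TBIE against sham. The numbers did not pair the rats: the correlations of same-numbered rats ran from −0.43 to 0.40, 4 of 12 pairs passed 0.1, and 2 of 12 rats correlated best with their own number.

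Some miRNAs that did not pass changed sign. With library totals these were miR-28-3p (0.0043), miR-219a-1-3p (0.032), let-7c-5p (0.40) and miR-146a-5p (0.40). Scaled to miR-28-3p they were miR-204-5p (0.013), let-7c-5p (0.39) and miR-146a-5p (0.41). miR-133a-3p/133b-3p was −0.51 in DESeq2, −0.34 with the replicate block, −0.54 with the ratio, and let-7c-5p was 0.080 in limma-voom. The ratio also turned miR-16-5p (−0.19) and miR-191a-5p (−0.0030). Without UEF sham 3, DESeq2 turned miR-133a-3p/133b-3p (−0.85), let-7c-5p (0.38), miR-212-3p (−0.054) and miR-146a-5p (0.11), and limma-voom turned miR-28-3p (0.039), miR-204-5p (0.48), miR-133a-3p/133b-3p (−0.56), let-7c-5p (0.61) and miR-146a-5p (0.11). With a rat left out, miR-411-5p ranged from −0.83 to 0.021, miR-133a-3p/133b-3p from −0.63 to 2.67, let-7c-5p from −0.61 to 0.37, miR-212-3p from −0.039 to 0.26 and miR-146a-5p from −0.37 to 0.10. The cause was not tested. With 4 sham rats, no miRNA past the threshold had an absolute log2 fold change below 1.21. The power to detect differences near the median of 0.33 was not computed.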

Other observations

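None of the miRNAs on the remaining lists passed the test at UEF. Of 8 inflammation miRNAs (miR-21, miR-146, miR-155) 5 were above 0 (median 0.29), and miR-146a-5p, which restrains innate immune signalling, was at 11727 ± 4188 CPM (SD, n = 4) in sham and 11035 ± 3200 CPM (n = 8) in TBI rats. Of 6 white cell and platelet miRNAs 5 were above 0 (median 0.18), with miR-223-3p, abundant in neutrophils, at 22389 ± 2634 and 31144 ± 14350 CPM. Pancreas miRNAs had a median of 0.22 (6 of 8 above 0, and 0.081 without UEF sham 3), epithelial miRNAs −0.01 (4 of 9) and choroid plexus miRNAs −0.04 (2 of 4). The members with the highest mean over all 12 rats were miR-375-3p of islet cells (0.76, SE 0.46, edgeR adjusted p = 0.476), miR-200c-3p of epithelia (1.04, SE 0.58, 0.414) and miR-204-5p of the choroid plexus (−0.83, SE 0.50, 0.476, and −0.098 without UEF sham 3). The medians of epithelium and choroid plexus turned positive with library totals alone (0.49 and 0.33) and scaled to miR-28-3p (0.45 and 0.26). These scalings also raised the median of all miRNAs. Relative to that median, epithelium was at 0.054 and 0.11 and choroid plexus at −0.10 and −0.085. Among the most abundant miRNAs of all, miR-191a-5p was at 0.38 (SE 0.37, edgeR adjusted p = 0.700) and let-7c-5p at −0.30 (SE 0.44, 0.814, and 0.37 without UEF sham 3).

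Within the 8 TBI rats, 14 relations of log2 CPM were computed, 10 of miRNAs that fell with miR-122-5p and 4 of miRNAs that rose with miR-434-3p, with adjusted p over the 14. All share the scaling of their library. miR-122-5p went with its antisense miR-3591 (Pearson r = 0.996, exact permutation p = 2.48e-05, adjusted 3.47e-04; Spearman rho = 1.00, exact permutation p = 4.96e-05, adjusted 6.94e-04; r = 0.989 without the 2 rats farthest from the median, TBIE 1 and TBIN 4). With miR-194-5p r was 0.851 (exact permutation p = 0.00553, adjusted 0.0155; rho = 0.905, exact permutation p = 0.00456, adjusted 0.0213), and fell short of that, at 0.594, without those 2 rats. With miR-3473 it was −0.593 (exact permutation p = 0.120, adjusted 0.140; rho = −0.381, exact permutation p = 0.360, adjusted 0.420), and −0.572 without them. Of its other relations, those with miR-122-3p, miR-466b-5p, miR-802-5p and miR-192-5p passed by Pearson's r (0.990, 0.896, 0.837 and 0.828). Without TBIE 1 and TBIN 4 these were 0.974, 0.675, 0.405 and 0.518. By rank miR-802-5p did not pass (rho = 0.667, exact permutation p = 0.0831, adjusted 0.166). Those with miR-101b-3p, miR-615 and miR-23a-5p did not pass by Pearson's r. miR-434-3p went with miR-382-5p (r = 0.887, exact permutation p = 0.00315, adjusted 0.0110; rho = 0.786, exact permutation p = 0.0279, adjusted 0.0652), with r = 0.62 without TBIE 2 and TBIN 3. Its other relations did not pass, with r = 0.698 for miR-323-3p (exact permutation p = 0.0596, adjusted 0.0816), 0.769 for miR-409b (0.0355, adjusted 0.0552) and 0.770 for miR-129-5p (0.0315, adjusted 0.0551), and without those 2 rats r was 0.256, 0.158 and −0.0939, so they rested on these rats. Their rho was 0.381, 0.405 and 0.524 (exact permutation p = 0.360, 0.327 and 0.197, adjusted 0.420, 0.420 and 0.306).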
